A study of Mus musculus and Homo sapiens with 22 samples.

Results

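The Celf family comprises 6 mouse genes, Celf1 to Celf6, which were taken by name from the 22667 genes of the N2A expression files. All 6 were listed in those files, and 5 had a mean of at least 1 RPKM in the siRNA libraries and could be tested. Celf2 did not reach that level. The files give them as ENSMUSG00000005506 (Celf1), ENSMUSG00000002107 (Celf2), ENSMUSG00000028137 (Celf3), ENSMUSG00000024268 (Celf4), ENSMUSG00000034818 (Celf5) and ENSMUSG00000032297 (Celf6).

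CELF proteins bind GU-rich stretches of RNA through RNA recognition motifs. In the nucleus they promote or repress the inclusion of exons, often in opposition to the muscleblind (MBNL) proteins, and in the cytoplasm they affect the decay and translation of mRNAs. Celf1 and Celf2 are generally described as the widely expressed members, with Celf2 prominent in brain, heart and muscle, whereas Celf3, Celf4, Celf5 and Celf6 are mainly neuronal. Celf4 is also known for limiting the excitability of neurons, and its loss causes seizures in mice.

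N2A is a mouse neuroblastoma line, and RNA-seq of poly(A) RNA was used to profile it after depletion of 3 proteins that act on splice site choice. Stable populations carried a lentiviral hairpin against GFP (shGFP, the control) or against the 3′ untranslated region of the mRNA for nSR100, a neuronal splicing factor encoded by Srrm4 (shnSR100), both kept under 2 ug/mL puromycin. Other N2A cells were harvested 48 hours after transfection with a non-targeting siRNA pool (siControl a and b) or with a pool against U2af65 (siU2af65, letter a) or Ptbp1 (siPtbp1, letter b). The product of U2af2, U2af65, recognises pyrimidine-rich sequence upstream of exons during spliceosome assembly, and Ptbp1 represses neuronal exons. Each hairpin file combined 2 sequencing runs of different read lengths, so the 6 files hold 8 samples of the series, and only siControl had 2 libraries. The series also held human 293T RNA-seq and crosslinking libraries, which were not analysed here. No label says that the libraries came from separate cultures. Every p-value therefore measures the spread between these libraries only, which may be technical.

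The files held 60220620 to 77138004 reads in genes. Knockdown of the targeted genes was seen in the file so labelled: U2af2 was 18.4 RPKM in siU2af65 and 90.3 to 113 RPKM elsewhere, and Ptbp1 was 8.53 RPKM in siPtbp1 and 124 to 158 RPKM elsewhere. Srrm4 was 2.50 RPKM in shnSR100 and 11.6 RPKM in shGFP. It also differed among the siRNA libraries, at 4.54 RPKM in siControl a, 8.37 in siControl b, 12.03 in siU2af65 and 4.51 in siPtbp1. Of 11 neuronal markers 8 were tested, among them Uchl1 at 484 to 595 RPKM and the neuronal tubulin gene Tubb3 at 193 to 475 RPKM, while Nefl, Nefm and Dcx stayed at or below 0.12 RPKM in every file. The sympathetic regulator Hand2 was at 133 to 234 RPKM. Glial markers summed to 2.34 to 5.16 RPKM over 6 genes. The summed muscle markers were 15.5 and 7.86 RPKM in shGFP and shnSR100 against 0.600 to 1.30 RPKM in the siRNA files, with desmin (Des) at 15.1 and 7.56 RPKM in the hairpin files and Myod1 at or below 0.01 RPKM. Summed fibroblast markers were 7.27 and 12.2 RPKM in shGFP and shnSR100 and 0.410 to 0.840 RPKM in the siRNA files. Dcn (3.99 and 5.7 RPKM) and Pdgfra (2.74 and 5.82 RPKM) made up most of the hairpin sums. Col1a1 was at or below 0.48 RPKM, Col1a2 at or below 0.15 RPKM and Lum at or below 0.04 RPKM in every file. Immune markers summed to 0.640 to 3.90 RPKM, highest in siU2af65, where Tyrobp alone was 3.41 RPKM, and Ptprc was at 0 in all files. Endothelial and epithelial markers summed to 5.54 to 10.3 RPKM, also highest in siU2af65. Pecam1 made up most of that sum in every file, at 4.54 to 9.15 RPKM, while Kdr was at 0.

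Celf1 was the most abundant member in every file except shGFP, and Celf2 was close to undetected. These levels are in RPKM, reads scaled by gene length and by the total of the file, so genes can be compared with each other. Celf1, which controls splicing, decay and translation of many mRNAs, was 55.4 RPKM in shGFP, 53.5 in shnSR100, 49.9 and 57.5 in siControl a and b, 54.1 in siU2af65 and 66.3 in siPtbp1. It stood at percentile 85.2 to 89.0 of the 11237 tested genes. Its range over the 6 files was 0.40 on the log2(RPKM + 1) scale, where the median tested gene spanned 0.79 and 88.8% of tested genes spanned more than Celf1.

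Celf2 had 6 reads in shGFP, 2 in shnSR100, 0 in siControl a, 1 in siControl b, 0 in siU2af65 and 2 in siPtbp1. Its RPKM was 0.01 in shGFP and 0.00 in every other file. A count of 0 allows up to 3 reads, which is 0.0469 CPM (reads scaled to a common total) in siControl a and 0.0438 CPM in siU2af65, for counting error only. The pairing of Celf1 and Celf2 as the widely expressed members was therefore not seen in these N2A files, where Celf1 alone made up that side.

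Celf3, a splicing regulator of the neuronal group, was the most abundant of the 4 neuronal members in every file. It was 67.3 RPKM in shGFP, 27.3 in shnSR100, 33.2 and 28.7 in siControl a and b, 24.5 in siU2af65 and 27.0 in siPtbp1. shGFP stood apart at 2.03 times the next file, and the other 5 files lay between 24.5 and 33.2 RPKM.

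Celf4 was 15.3 RPKM in shGFP, 8.01 in shnSR100, 16.0 and 13.6 in siControl a and b, 8.96 in siU2af65 and 14.4 in siPtbp1. The shnSR100 and siU2af65 files were the low ones, and the other 4 lay close together. Celf6, which acts on exon choice and on mRNA abundance in brain, had the same arrangement, at 14.2 RPKM in shGFP, 6.29 in shnSR100, 11.9 and 11.3 in siControl a and b, 5.28 in siU2af65 and 12.8 in siPtbp1.

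Celf5, another neuronal splicing regulator, was 11.95 RPKM in shGFP, 5.56 in shnSR100, 5.83 and 5.94 in siControl a and b, 5.74 in siU2af65 and 7.17 in siPtbp1. As for Celf3, shGFP was the high file, at 1.67 times the next. In the siControl libraries the order of levels was Celf1 (53.7 ± 5.34 RPKM, SD, n = 2), Celf3 (30.9 ± 3.203), Celf4 (14.8 ± 1.67), Celf6 (11.6 ± 0.410), Celf5 (5.88 ± 0.0780) and Celf2. No neighbours in this order overlapped between the 2 control libraries. The order of Celf4 and Celf6 was the same in all 6 files, at 8.01 and 6.29 RPKM in shnSR100, and Celf5 was above Celf6 in siU2af65 only.

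**Figure D1:**
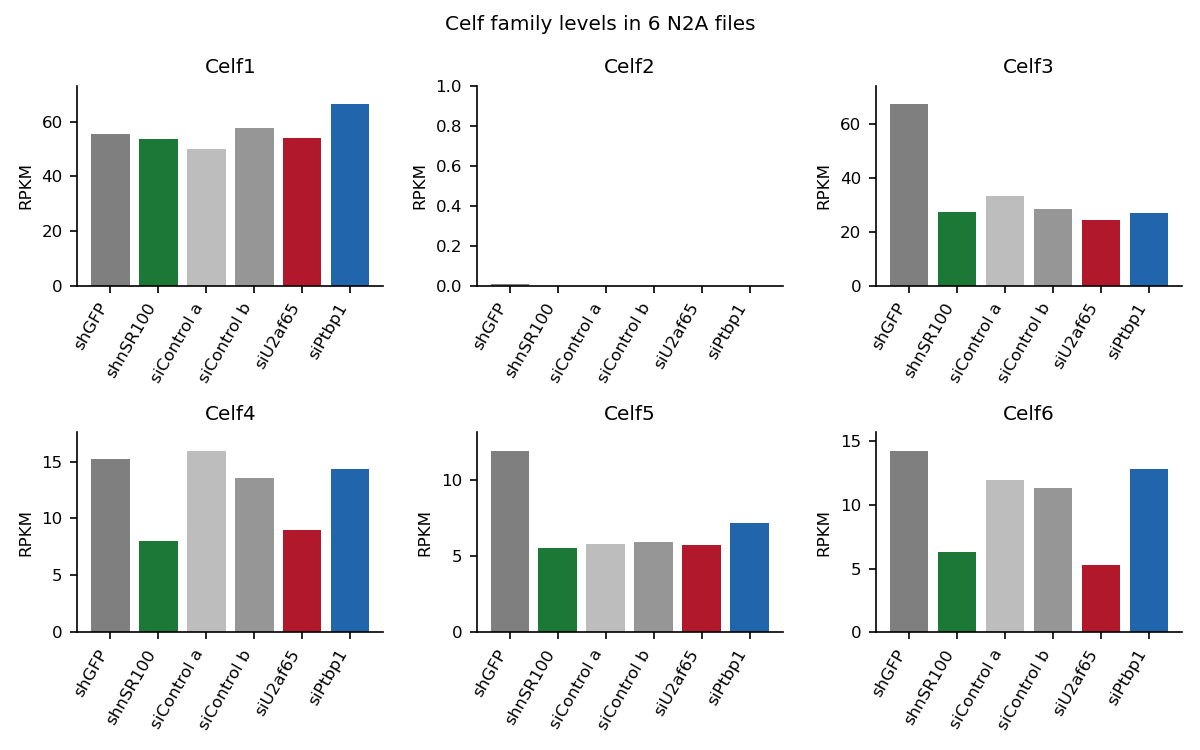
RPKM of each Celf gene (vertical axes, each from 0 and scaled to its gene) in the 6 N2A files (bars, 1 file each, with no error since only siControl has 2 libraries). Celf3 and Celf5 stand high in shGFP, Celf4 and Celf6 stand low in shnSR100 and siU2af65, Celf1 varies from 49.9 to 66.3 RPKM, and Celf2 is at or below 0.01 RPKM.

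The 5 detected members thus fell into different profiles over the files. The distance between 2 members was taken as the root mean square difference of their log2(RPKM + 1) after each was centred over the 6 files. Celf4 and Celf6 were the closest pair, at 0.186, followed by Celf3 and Celf5 at 0.215. The other 8 pairs were 0.339 to 0.511 apart, and Celf1 with Celf3 was the most distant. These distances describe 6 files that share cells and scaling and carry no test.

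The RPKM of the 6 genes summed to 164 in shGFP, 101 in shnSR100, 117 in each siControl library, 98.5 in siU2af65 and 128 in siPtbp1. Celf1 held 33.7% of this sum in shGFP, 53.1% in shnSR100, 42.7% and 49.1% in siControl a and b, 54.9% in siU2af65 and 52.0% in siPtbp1. Celf3 to Celf6 together were 1.96 times Celf1 and Celf2 in shGFP, 1.34 and 1.03 times in siControl a and b, and 0.883, 0.822 and 0.925 times in shnSR100, siU2af65 and siPtbp1. In the 3 control files the neuronal members thus outweighed Celf1, and in the 3 knockdown files they did not. This is a description with no test, and the ratios of siControl b and siPtbp1 were nearer to each other than those of the siControl libraries.

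**Figure D2:**
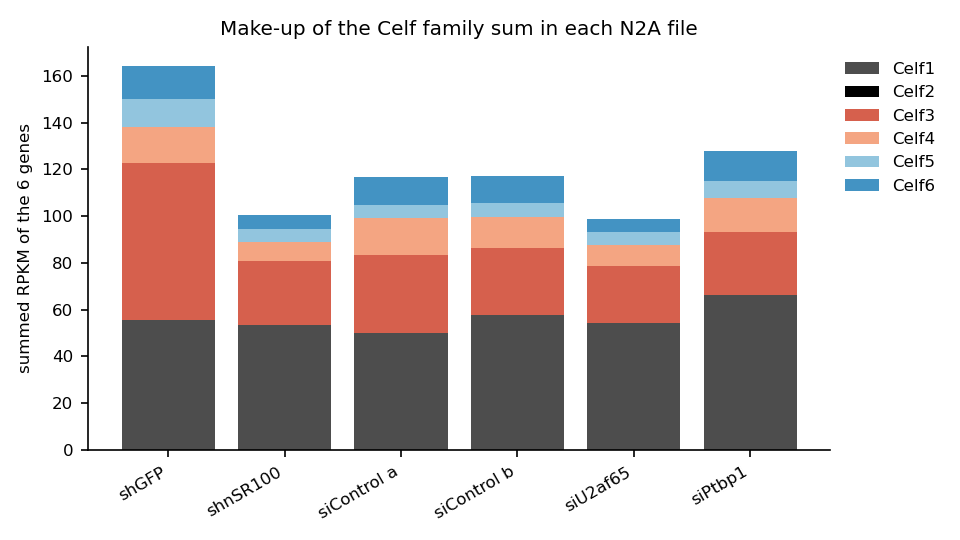
Summed RPKM of Celf1 to Celf6 (vertical axis, stacked by gene) in each of the 6 N2A files (bars, 1 file each). The sum is highest in shGFP at 164 RPKM, where Celf3 alone holds 41.0%, and lowest in siU2af65 at 98.5 RPKM.

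After U2af65 knockdown Celf6 fell to 42.3% of the controls, and it was the 1 of 5 tested members that passed the test. Counts scaled by TMM, a correction for library make-up, gave Celf6 at 34.0 CPM in siControl a, 29.7 in siControl b and 13.5 in siU2af65. The siU2af65 library was thus below both controls. On the log2 scale Celf6 fell by 1.24, with an SE of 0.29 and an adjusted p of 0.0422 in edgeR's quasi-likelihood test. In bulk RNA, fewer cells that express a gene and less of its RNA per cell cannot be told apart. Against siControl a alone, the control of the same letter, the difference was -1.33, and against siControl b it was -1.14. The call was lost when the filter was raised to a mean of 5 RPKM (-1.22, adjusted p = 0.0588) and when shGFP was added to the controls (-1.30, adjusted p = 0.389). Over the alternatives the edgeR, limma and DESeq2 adjusted p ran from 6.01e-04 to 0.389.

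Celf4 had the next largest difference and did not pass the test. It was 66.4 CPM in siControl a, 52.0 in siControl b and 33.3 in siU2af65, below both controls. The log2 difference was -0.83 (SE 0.25, edgeR adjusted p = 0.0816), with -0.99 against siControl a and -0.64 against siControl b. It passed in edgeR without a filter on low genes (-0.89, adjusted p = 0.0168).

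Celf3 was 95.8, 76.1 and 63.1 CPM in siControl a, siControl b and siU2af65, which is -0.44 from the controls (SE 0.23, adjusted p in edgeR 0.283). The control libraries themselves differed by -0.33 for Celf3 (b minus a), more than the -0.27 between siU2af65 and siControl b. With shGFP, where Celf3 was high, added to the controls the difference was -0.86 (adjusted p = 0.610). Celf5 was 26.8, 25.1 and 23.6 CPM, a difference of -0.14 (SE 0.27, adjusted p = 0.812) that became -0.50 with shGFP added (adjusted p = 0.755). Celf1 was 122, 129 and 118 CPM, a difference of -0.09 (SE 0.21, adjusted p = 0.845), and its sign turned when totals replaced TMM (0.010) and with limma on log2(RPKM + 1) (0.013).

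The siU2af65 library was below both controls for 5 of 5 tested members in TMM-scaled CPM, as it was for 39.5% of all 11237 tested genes. This count depends on the scaling: by RPKM Celf1 was 54.1 in siU2af65, between 49.9 and 57.5 in siControl a and b. The test called 5.24% of the tested genes in either direction (205 rose and 384 fell, against 581 and 581 with library totals) and 3.42% as lower, against 1 of 5 members. The members' median difference was -0.44, beside -0.004 over all tested genes. Lower differences than that of Celf6 were found for 3.23% of tested genes, and for Celf4, Celf3, Celf5 and Celf1 the shares were 8.34%, 20.9%, 39.6% and 43.3%. Neuronal markers had a median of -0.15 in this comparison, with 0 of 8 called in edgeR and 2 (Snap25 and Map2) at an unadjusted p under 0.05, near the 23.5% of all tested genes. Among the neuronal markers Snap25 had the lowest edgeR adjusted p, 0.0521, at a difference of -0.88. Of the 8, 5 had a negative difference, while Tubb3 was higher, at 475 RPKM against 390 and 383 in siControl a and b. The summed RPKM of the neuronal markers was 1585 in siU2af65, which lay between 1631 and 1559 in siControl a and b. Any part of a neuronal difference in the value of Celf6 was not tested. The spread came from the 2 controls, with 1 residual degree of freedom, and the single siU2af65 library was assumed to vary like them.

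**Figure D3:**
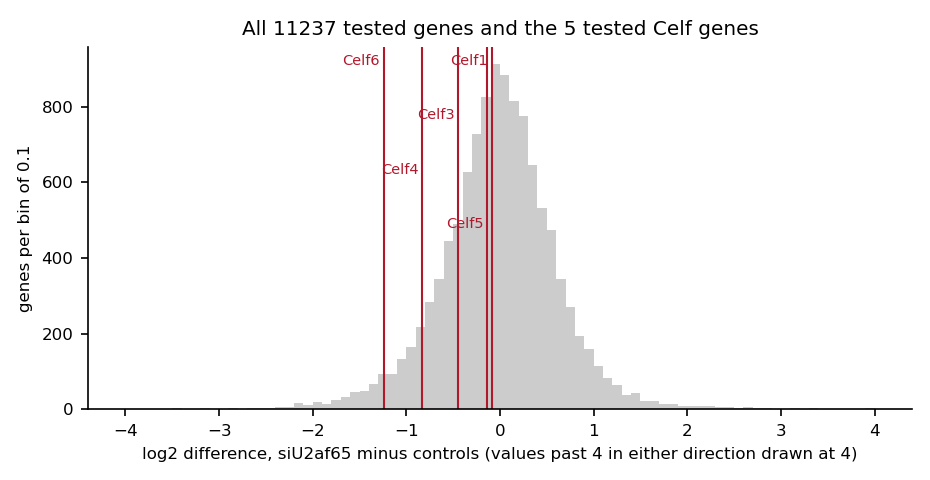
Number of tested genes (vertical axis, bins of 0.1) by log2 difference between siU2af65 and the controls (horizontal axis), with the 5 tested Celf genes as lines. Celf1 at -0.09 and Celf5 at -0.14 lie in the middle of the distribution, and Celf6 at -1.24 lies in its lower tail, with 3.23% of genes below it.

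After Ptbp1 knockdown no Celf member was called. Celf1 had the largest positive value, at 150 CPM in siPtbp1 against 122 and 129 CPM in siControl a and b, and was above both controls. Its log2 difference was 0.25 (SE 0.21, edgeR adjusted p = 0.999), and against siControl b, the control of the same letter, it was 0.21. Celf5 was 30.5 CPM in siPtbp1, also above both controls, with a difference of 0.23 (SE 0.27), which turned to -0.14 with shGFP added to the controls. Celf3 was 72.1 CPM, below both controls, with a difference of -0.25 (SE 0.23) from both, -0.08 from siControl b and -0.67 with shGFP added. Celf4 at 55.3 CPM and Celf6 at 33.7 CPM lay between the controls, with differences of -0.10 (SE 0.24) and 0.08 (SE 0.27). All 5 adjusted p were 0.999.

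In edgeR 0.0267% of tested genes were called after Ptbp1 knockdown, and 0 of 5 members. In edgeR, limma and DESeq2 alike, 0 members were called and 0 had an unadjusted p under 0.05. The siPtbp1 library lay outside both controls for 3 of 5 members, as it did for 63.6% of tested genes. The members' median difference was 0.08, beside 0.01 over all tested genes.

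**Figure D4:**
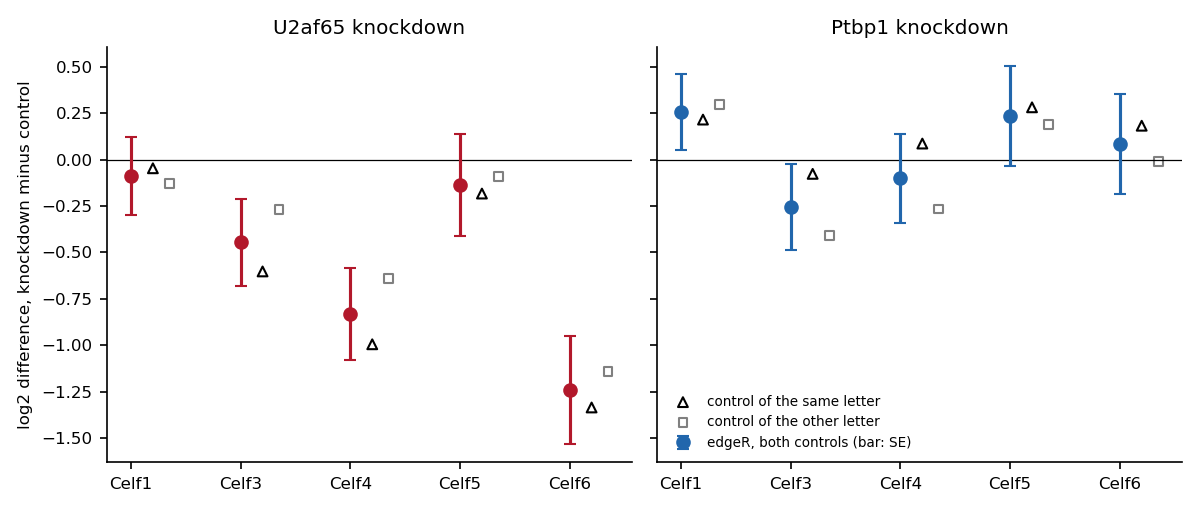
Log2 difference of each knockdown from the controls (vertical axis) for the 5 tested Celf genes after U2af65 knockdown (left) and Ptbp1 knockdown (right). Filled points are the edgeR estimates from both controls with their SE, and open symbols are the differences from each control library alone. All 5 genes lie below 0 against each control for U2af65, led by Celf6 at -1.24, while for Ptbp1 the estimates lie between -0.25 and 0.25.

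The 2 knockdowns share their controls, so the difference between them was tested directly. Celf6 was 13.5 CPM in siU2af65 and 33.7 CPM in siPtbp1. The knockdowns differed by -1.32 on the log2 scale (SE 0.32), which missed the threshold (edgeR adjusted p = 0.0536). With edgeR using RLE size factors the adjusted p was 0.0427, and over the alternatives it ran from 0.00170 to 0.581. For Celf4 the difference between knockdowns was -0.73 (SE 0.28, adjusted p = 0.173). Celf5, Celf1 and Celf3 had differences of -0.37 (SE 0.31), -0.34 (SE 0.24) and -0.19 (SE 0.26), with adjusted p of 0.550, 0.463 and 0.733. In this contrast 3.62% of tested genes were called and 0 of 5 members, of which 2, Celf4 and Celf6, had an unadjusted p under 0.05 in edgeR, as did 20.8% of tested genes. Limma and DESeq2 each called Celf6. In this contrast siU2af65 carries the letter a and siPtbp1 the letter b, and siControl b minus a was -0.19 for Celf6, -0.35 for Celf4 and -0.33 for Celf3. With each knockdown set against the control of its own letter, a comparison added after the data were seen and with no test, the knockdowns differed by -1.52 for Celf6, -1.08 for Celf4 and -0.53 for Celf3.

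Between the hairpin files, the 4 neuronal members were at 40.6 to 52.5% of the control file and Celf1 was near its level. Celf3 in shnSR100 was at 40.6% of shGFP (95% interval 39.3 to 42.0%), Celf6 at 44.2% (41.3 to 47.4%), Celf5 at 46.5% (43.9 to 49.4%) and Celf4 at 52.5% (49.8 to 55.3%). Celf1 was at 96.5% (93.6 to 99.5%). The intervals are exact binomial, from 10917 and 5418 reads for Celf3 down to 2282 and 1234 reads for Celf6, and cover counting error only. With 1 file a group there is no test. Celf2, with 6 and 2 reads, had a ratio of 27.3% whose interval ran from 2.70 to 152.5%.

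On the log2(RPKM + 1) scale, which understates the change of low genes, the differences were -1.27 for Celf3, -1.06 for Celf6, -0.98 for Celf5, -0.85 for Celf4 and -0.05 for Celf1. The shnSR100 file was lower by 2-fold or more for 2 of the 5 members (Celf3 and Celf6), against 0.615% of the genes with at least 1 RPKM in either file. The members' median was -0.98, beside 0.04 over those genes. Neuronal markers were also lower in this pair: their summed RPKM was 1617 in shGFP and 1085 in shnSR100, with a median difference of -0.79 over 8 genes, and in siControl a and b it was 1631 and 1559. Snap25, a synaptic vesicle fusion gene chosen here after its values were seen, was the 1 neuronal marker past 2-fold, at 102 RPKM in shGFP, 44.5 in shnSR100, 96.1 and 107 in siControl a and b, 58.8 in siU2af65 and 99.3 in siPtbp1. The part of a general difference in neuronal genes in the Celf values was not tested.

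The siControl libraries gave a different picture of the same shnSR100 file. With their mean in place of shGFP, a comparison chosen after the data were seen, 0 of the 5 members differed by 2-fold, against 2.35% of genes lower by that much. Celf4 and Celf6 stayed lower, at -0.80 and -0.79, while Celf3 was at -0.17, Celf5 at -0.07 and Celf1 at 0.00. All genes had a median of 0.19 in this comparison, and relative to it the differences were -0.99 for Celf4, -0.98 for Celf6, -0.36 for Celf3, -0.26 for Celf5 and -0.20 for Celf1.

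Both comparisons use the same shnSR100 file, so they differ only by the distance between shGFP and the siControl mean. Which of these controls departs was not tested. Against the siControl mean, shGFP was higher by 1.1 for Celf3 and 0.91 for Celf5, by 0.27 for Celf6 and by 0.05 for Celf4 and Celf1, where all genes had a median of 0.17. Celf3 was the 1 of 5 members past 2-fold in this direction, against 7.91% of genes. Celf3, Celf5 and Celf6 were highest of all 6 files in shGFP, as were 18.1% of tested genes. The hairpin and siRNA files differed in more than the targeted genes, as the desmin, Dcn and Pdgfra values above show. Each hairpin file also combined 2 runs of different read lengths, so differences of cells and of sequencing cannot be told apart. What set Celf3 and Celf5 apart in shGFP was not tested.

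**Figure D5:**
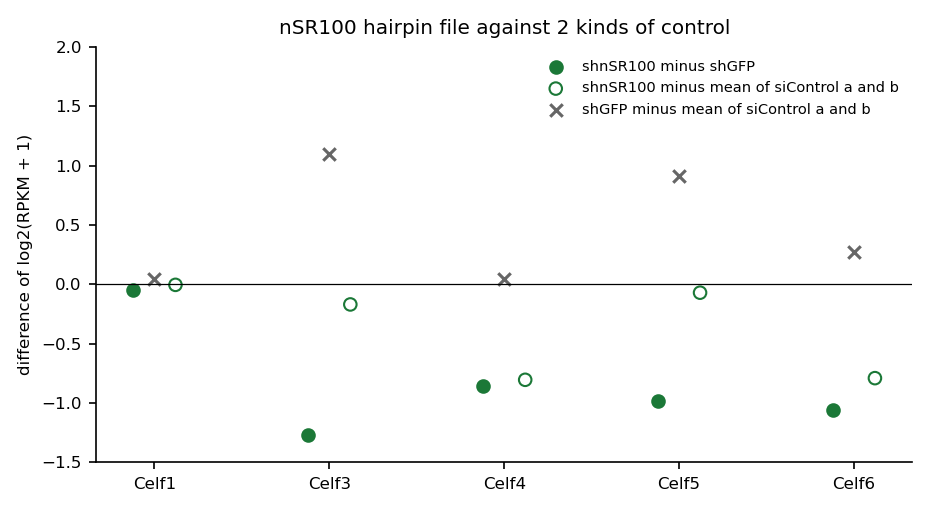
Difference of log2(RPKM + 1) (vertical axis) for the 5 detected Celf genes: shnSR100 minus shGFP (filled), shnSR100 minus the siControl mean (open) and shGFP minus the siControl mean (crosses). Celf4 and Celf6 are lower in shnSR100 against both kinds of control, whereas Celf3 and Celf5 are at -0.17 and -0.07 against the siControl mean and their crosses stand at 1.1 and 0.91.

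Genes that work with or against the CELF proteins were read from lists chosen with earlier results of these data known. Mbnl1, which opposes CELF proteins on many exons, fell from 106 and 131 CPM in siControl a and b to 58.8 CPM in siU2af65, a log2 difference of -1.01 (SE 0.23) with an adjusted p of 0.0414 in edgeR. Mbnl2 was at 117, 104 and 66.8 CPM, -0.72 from the controls (SE 0.22, adjusted p = 0.0841). In siPtbp1 their differences were -0.12 (SE 0.22) and -0.31 (SE 0.21), with adjusted p of 0.999. In the hairpin files Mbnl1 was 27.4 RPKM in shGFP and 34.3 in shnSR100, and Mbnl2 was 31.9 and 26.0. Mbnl3 had 27 and 84 reads in shGFP and shnSR100 and 0 to 5 in the siRNA libraries, so it was not tested. With 13 of its 17 genes tested, the list of Mbnl and other neuronal splicing regulators had 0 that rose and 1 that fell after U2af65 knockdown, where 3.42% of all tested genes fell. Its median was -0.305, beside -0.004 over all tested genes, and it had 0 calls after Ptbp1 knockdown.

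Parn encodes a deadenylase that CELF1 is known to recruit to mRNAs. It was 58.0 and 55.7 CPM in siControl a and b, 47.2 in siU2af65 and 47.8 in siPtbp1, with differences of -0.27 (SE 0.22, edgeR adjusted p = 0.505) and -0.25 (SE 0.22, adjusted p = 0.999). Of 35 tested genes of deadenylation and mRNA decay 0 rose and 1 fell after U2af65 knockdown, which is near the 3.42% of all tested genes that fell, with a median of -0.11. The gene was Cnot6, a deadenylase subunit of the CCR4-NOT complex, which fell by 1.39 (SE 0.23, adjusted p = 0.0153).

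Among mRNAs whose decay or translation CELF proteins are reported to control, 10 of 12 were tested. Ccnd1, the cyclin D1 gene, was the 1 that rose after U2af65 knockdown, with none that fell and a median of -0.31. Its log2 difference was 0.91 (SE 0.22), with an adjusted p of 0.0485 in edgeR. Over all 11237 tested genes 205 rose and 384 fell in that comparison. At an unadjusted edgeR p under 0.05 were 5 of the 10, beside 23.5% of all tested genes. Of 8 genes with exons known to be CELF-regulated 6 were tested, and the cardiac troponin gene Tnnt2 rose by 2.43 (SE 0.57, adjusted p = 0.0431), from 0.821 and 0.358 CPM to 3.13 CPM, with none that fell. Such a low gene could pass the filter on mean RPKM through the siU2af65 library, so this call is not read as a result. The immune marker Tyrobp was 0.27 and 0.70 RPKM in siControl a and b, 0.86 in siPtbp1 and 3.41 in siU2af65. It thus passed the filter of mean 1 RPKM only through siU2af65. Its rise from 0.151 and 0.358 CPM to 1.68 CPM is therefore not read as a result either. Ptprc was at 0 in all 6 files. After Ptbp1 knockdown 0 genes of these 4 lists were called in edgeR, and Ptbp2, Insr, Exosc2 and Dcp2 had an unadjusted p under 0.05, as did 4.28% of all tested genes. Between the hairpin files 2 of 13 genes of the Mbnl and splicing regulator list were lower by 2-fold or more. Of these, Srrm4 is the target of the hairpin, so its place in the count was set by the design. The other was its relative Srrm3 (14.6 RPKM in shGFP and 6.61 in shnSR100, named after its values were seen). That list had a median of -0.28, and 0.615% of genes were lower by as much. In the decay, decay target and exon lists 0 genes differed by 2-fold. The values are reads per gene and do not show exon inclusion.

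For the members that spanned 1 or more on the log2(RPKM + 1) scale, Celf3 and Celf6, the 3 genes of nearest profile over the 6 files were sought among all tested genes. Nearest to Celf6 were Siah3 at a root mean square distance of 0.0570, Mpp3 at 0.115 and the sodium channel subunit gene Scn3b at 0.116. Scn3b was 16.2 RPKM in shGFP, 7.08 in shnSR100, 11.1 and 11.97 in siControl a and b, 5.84 in siU2af65 and 11.7 in siPtbp1. That it shares the low files of Celf6 follows from how it was picked. Nearest to Celf3 were Col7a1 at 0.171, the monoamine transporter gene Slc29a4 at 0.179 and the acetylcholinesterase gene Ache at 0.196. Ache was 42.4 RPKM in shGFP and 14.2 to 23.4 RPKM in the other files. These are the closest of 11237 profiles over 6 files and carry no test.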

How the data were processed

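Per the submitters' processing notes, the tools were Bowtie and bedtools 2.17.0, and the genomes mm9 and hg19; which step used which is not given in the sources used here. The authors deposited, per Ensembl gene, a raw read count and an RPKM value. Over 7811 genes the RPKM matched the count over gene length and total reads, with 1 length per gene, to within 0.170%. Blank counts were read as 0, and 1114 genes had no RPKM. The counting rule, use of strand and annotation are not given in the sources used here, so overlapping and antisense genes are uncertain. Symbols were matched to 20759 of 22667 identifiers.

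Tests used edgeR 4.0.16 (R 4.3.3, glmQLFit) on counts of the 4 siRNA libraries with TMM scaling, over 11237 genes (mean RPKM of 1 or more), with Benjamini-Hochberg adjusted p and a threshold of 0.05 (common dispersion 0.0375, 8.65 prior and 1 residual degrees of freedom). SE is the log2 difference over the square root of F. Limma 3.58.1 and DESeq2 1.42.0 were alternatives. The fit was tested on simulated data. Hairpin files were compared without a test, at 2-fold on log2(RPKM + 1). Columns of other samples numbered 0.

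The members and gene lists were chosen with earlier results of these data known. Named genes were the members, the targets, Mbnl1 to Mbnl3, Parn, up to 3 called genes a list, and 3 nearest profiles for each member spanning 1 or more.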

Additional observations from a re-analysis of the deposited data

How the results depend on the processing

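No paired analysis was possible because the siRNA letters a and b leave no residual degree of freedom as a block, and the 2 numbered runs of each hairpin group were deposited as 1 file. Over the alternatives to TMM-scaled edgeR, calls after U2af65 knockdown (589), after Ptbp1 knockdown (3) and between the knockdowns (407) became 1162, 86 and 985 with library totals, 1045, 20 and 801 with DESeq2, 1285, 99 and 1066 with limma, 1649, 99 and 1279 with no filter, 257, 1 and 114 under a filter of mean 5 RPKM, and 0, 0 and 0 with shGFP added to the controls, where 1162, 167 and 917 genes had an unadjusted edgeR p under 0.05. In that last fit the spread includes the difference between hairpin and siRNA files. The 1 member called after U2af65 knockdown became 2 with no filter and 0 with the 5 RPKM mean or shGFP added. Between the knockdowns 0 members became 1, Celf6, with RLE, library totals, DESeq2, limma and no filter. Celf1 after U2af65 knockdown turned to 0.010 (library totals) and 0.013 (limma), and Celf5 after Ptbp1 knockdown to -0.14 (shGFP added). The hairpin count of 2 became 3 with a pseudocount of 0.1 (Celf5 at -1.09) and 0 with the siControl mean, an alternative added after the data were seen. The causes were not tested. Without siControl a or b there were values only, and Celf6 after U2af65 knockdown was -1.14 or -1.33.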

Other observations

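Genes next to the members in the order of the RefSeq annotation of GRCm38.p6 (used for names and order only, since the files' build differs) gave these values. Celf6 lies between Hexa and Parp6, whose differences after U2af65 knockdown were -0.25 and -0.36 (edgeR adjusted p = 0.521 and 0.488). Between the hairpin files Hexa was at 103 and 158 RPKM and Parp6 at 33.5 and 25.1 RPKM in shGFP and shnSR100. Celf3 overlaps Riiad1 in that annotation, and Riiad1 was 3.64 RPKM in shGFP and 1.34 to 2.81 RPKM in the other files, so reads shared between the pair are uncertain. On the other side of Celf3, Snx27 was 17.6 to 21.2 RPKM in all 6 files. Celf5 lies between Nfic and Ncln, which were 42.8 and 54.6 RPKM in shGFP, 45.7 and 54.6 in shnSR100 and 15.6 to 29.4 RPKM in the siRNA files, whereas Celf5 was high in shGFP alone.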
